A study of Mus musculus with 3 samples.

Results

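The integrin and laminin genes were selected by symbol from a table of 18245 genes. Every gene whose symbol began with Itga, Itgb, Lama, Lamb or Lamc was kept, apart from those named Itgb1bp, which encode proteins that bind an integrin tail. This gave 39 genes, of which 18 encode integrin alpha subunits, 8 integrin beta subunits and 11 laminin chains. The remaining 2 matched by name only. Itgbl1 encodes a secreted protein with repeats like those of beta subunits, and Itgb3bp encodes a nuclear protein of the centromere.

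Integrins are membrane receptors formed by an alpha and a beta subunit, and the pair sets which matrix protein the cell can hold. Laminins are secreted trimers of an alpha, a beta and a gamma chain, which assemble with type IV collagen, nidogen and perlecan into the basement membrane. The epicardium is a mesothelium that rests on such a membrane, and its cells pass to collagen- and fibronectin-rich matrix when they take on a mesenchymal form.

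Messenger RNA was profiled in 3 kinds of cultured cell from hearts of C57BL/6 mice, with 3 libraries each, and all were labelled as ventricle epicardium. Cardiosphere-derived cells (CDC) were mesenchymal cells that had grown out of epicardium peeled from hearts of 6-week-old mice, passed through floating spheres and reached passage 3. CDC-EpiC was epithelial clone 1, lifted with a cloning cylinder from CDC that had been kept with SB-431542 (10 µM), which blocks TGF-beta receptor signaling, for 2 weeks. Primary epicardial cells (pEpiC) were released by enzyme digestion from hearts of mice aged 6 to 8 weeks, grown in another medium and used at passage 3. The CDC-EpiC libraries hold a single clone, so their spread contains no difference between clones, and without an untreated clone the inhibitor and the choice of clone cannot be told apart. Isolation and medium likewise cannot be told apart from cell kind in any comparison with pEpiC.

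Total expected counts lay between 22008833 and 22756045 per library, of which the 39 genes took 0.255% to 0.303% in CDC, 0.209% to 0.239% in CDC-EpiC and 0.516% to 0.533% in pEpiC. The epicardial markers Wt1, Tbx18, Tcf21, Upk3b, Aldh1a2 and Msln had summed levels of 291 to 315 TPM (a level scaled to transcript length) in CDC, 2459 to 2792 in CDC-EpiC and 402 to 409 in pEpiC. The 6 markers did not move together. Past the threshold used below, 4 were higher and 1 lower in CDC-EpiC than in CDC, and 3 were higher and 3 lower in pEpiC than in CDC. Of all genes, 34.2% were higher and 34.6% lower in the first comparison, and 39.8% and 38.5% in the second. The summed level of 10 macrophage genes was 88.5 to 94.6 TPM in CDC and 33.9 to 37.1 TPM in CDC-EpiC, whereas pEpiC library 1 held 1631 TPM and pEpiC libraries 2 and 3 held 673 and 594 TPM. CDC libraries 1 and 2 held 191 and 190 counts of the cardiomyocyte gene Myh6, and CDC library 3 held 0. The summed level of 7 endothelial genes was 10.8 to 12.3 TPM in pEpiC and 0.37 to 0.89 TPM elsewhere, while Pecam1 and Cdh5 did not exceed 22 counts in any library. The 3 of these genes tested in pEpiC against CDC, Kdr, Tek and Vwf, were all higher in pEpiC, and the part of endothelial cells in the results was not tested. Changes between pEpiC and the other kinds also followed transcript length. For each doubling of length the log2 change rose by 0.45 in pEpiC against CDC, over 10684 genes, while the slope was 0.02 for CDC-EpiC against CDC. Integrin and laminin transcripts are mostly long, so values from a second fit with a length offset are given as well.

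Levels below are CPM (counts scaled to library size after TMM normalization), given for libraries 1, 2 and 3 in turn. Of the 39 genes, 30 had enough counts to be tested in all comparisons and 35 in at least 1. The other 4, Itgad, Itgae, Itgb6 and Itgb7, had no more than 7 counts in any library. Among the 35, the highest mean CPM was in pEpiC for 25 genes, in CDC-EpiC for 7 and in CDC for 3. This ranking was not tested, and the share of all genes highest in each kind was not counted. It uses no length offset and includes near ties, such as Itgb3 at means of 10.42 CPM in pEpiC and 10.37 CPM in CDC.

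**Figure D1:**
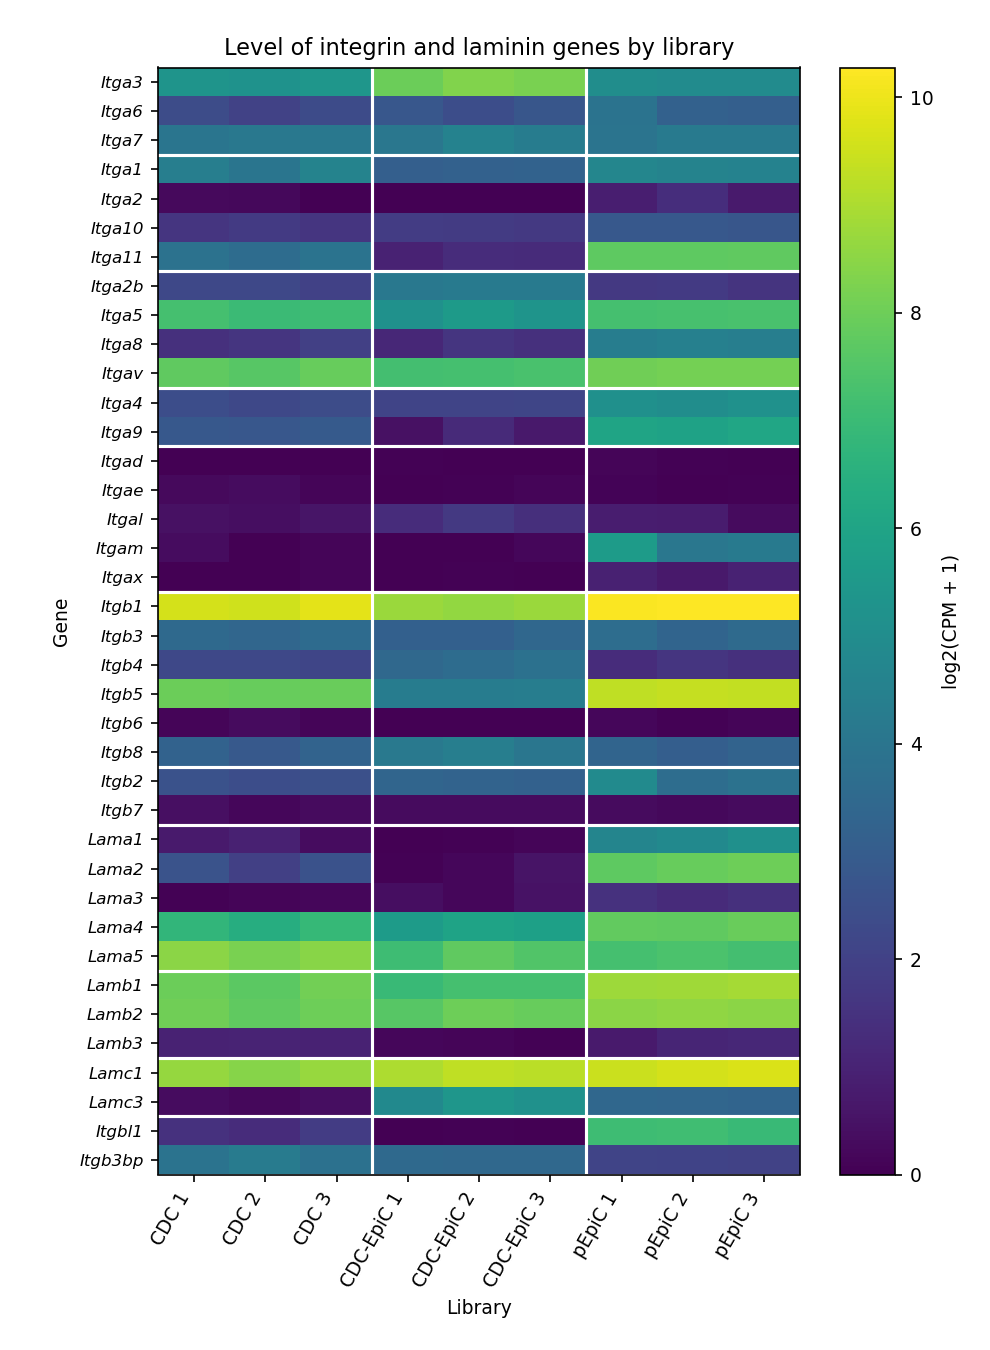
Level of 38 of the 39 genes in each of the 9 libraries, as log2(CPM + 1), with lines between cell kinds and between gene classes. Itga3 and Lamc3 are brightest in the 3 CDC-EpiC libraries, while Itga11, Lama2 and Itgbl1 are bright in the 3 pEpiC libraries and darkest in CDC-EpiC.

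In CDC-EpiC compared with CDC, 24 of the 30 genes tested passed the threshold of an adjusted p of 0.05 (edgeR quasi-likelihood test, Benjamini-Hochberg). Of these, 9 were higher and 15 lower in the clone. Across all 12976 genes tested, 68.8% passed, with 34.2% higher and 34.6% lower. In a bulk sample, fewer cells of a type and less RNA per cell cannot be told apart. The median log2 change of the 30 genes was -0.36 and that of all genes 0.00. Changes of at least 2-fold were seen in 14 of the 30, 6 higher and 8 lower, while 21.7% of all genes changed that much, 9.33% higher and 12.4% lower. For 24 of the 30 genes, and for 72.1% of all genes, every clone library lay on the same side of every CDC library. The split stayed at 9 higher and 15 lower with the length offset, where 70.7% of all genes passed (35.7% higher, 34.9% lower). On the TPM scale, tested with limma on log2(TPM + 1), it was 9 to 14, where 66.8% of all genes passed (37.5% higher, 29.4% lower).

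In pEpiC compared with CDC, 27 of 35 genes passed, 22 of them higher and 5 lower in pEpiC, while 78.3% of 13526 genes passed in all, 39.8% higher and 38.5% lower. Their median log2 change was 0.96, beside 0.02 for all genes. Changes of at least 2-fold were found for 20, of which 17 were higher and 3 lower, against 30.1% of all genes (15.7% higher, 14.4% lower). The groups did not overlap for 28 of 35 genes and 81.6% of all. With the length offset 20 were higher and 10 lower, where 74.7% of all genes passed (37.2% higher, 37.6% lower), and the median of the integrin and laminin genes was 0.42. The TPM scale moved the median of all genes to 0.41. On it 28 genes were higher and 3 lower, and 81.8% of all genes passed (60.9% higher, 20.9% lower).

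In CDC-EpiC compared with pEpiC, 31 of 35 genes passed, 7 higher and 24 lower in the clone, while 81.9% of 13547 genes passed in all, 40.3% higher and 41.5% lower. The median log2 change was -1.55, against -0.02 for all genes. Of the 27 genes that differed at least 2-fold, 7 were higher and 20 lower, and the share of all genes was 35.9% (15.8% higher, 20.1% lower). The groups did not overlap for 31 of 35 genes and 84.0% of all. With the length offset 11 were higher and 21 lower, where 80.4% of all genes passed (42.9% higher, 37.5% lower). On the TPM scale, with a median of -0.33 over all genes, 7 were higher and 26 lower, and 82.9% of all genes passed (27.2% higher, 55.7% lower). Each pair of comparisons shares the libraries of a kind, so these comparisons are not independent of each other.

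**Figure D2:**
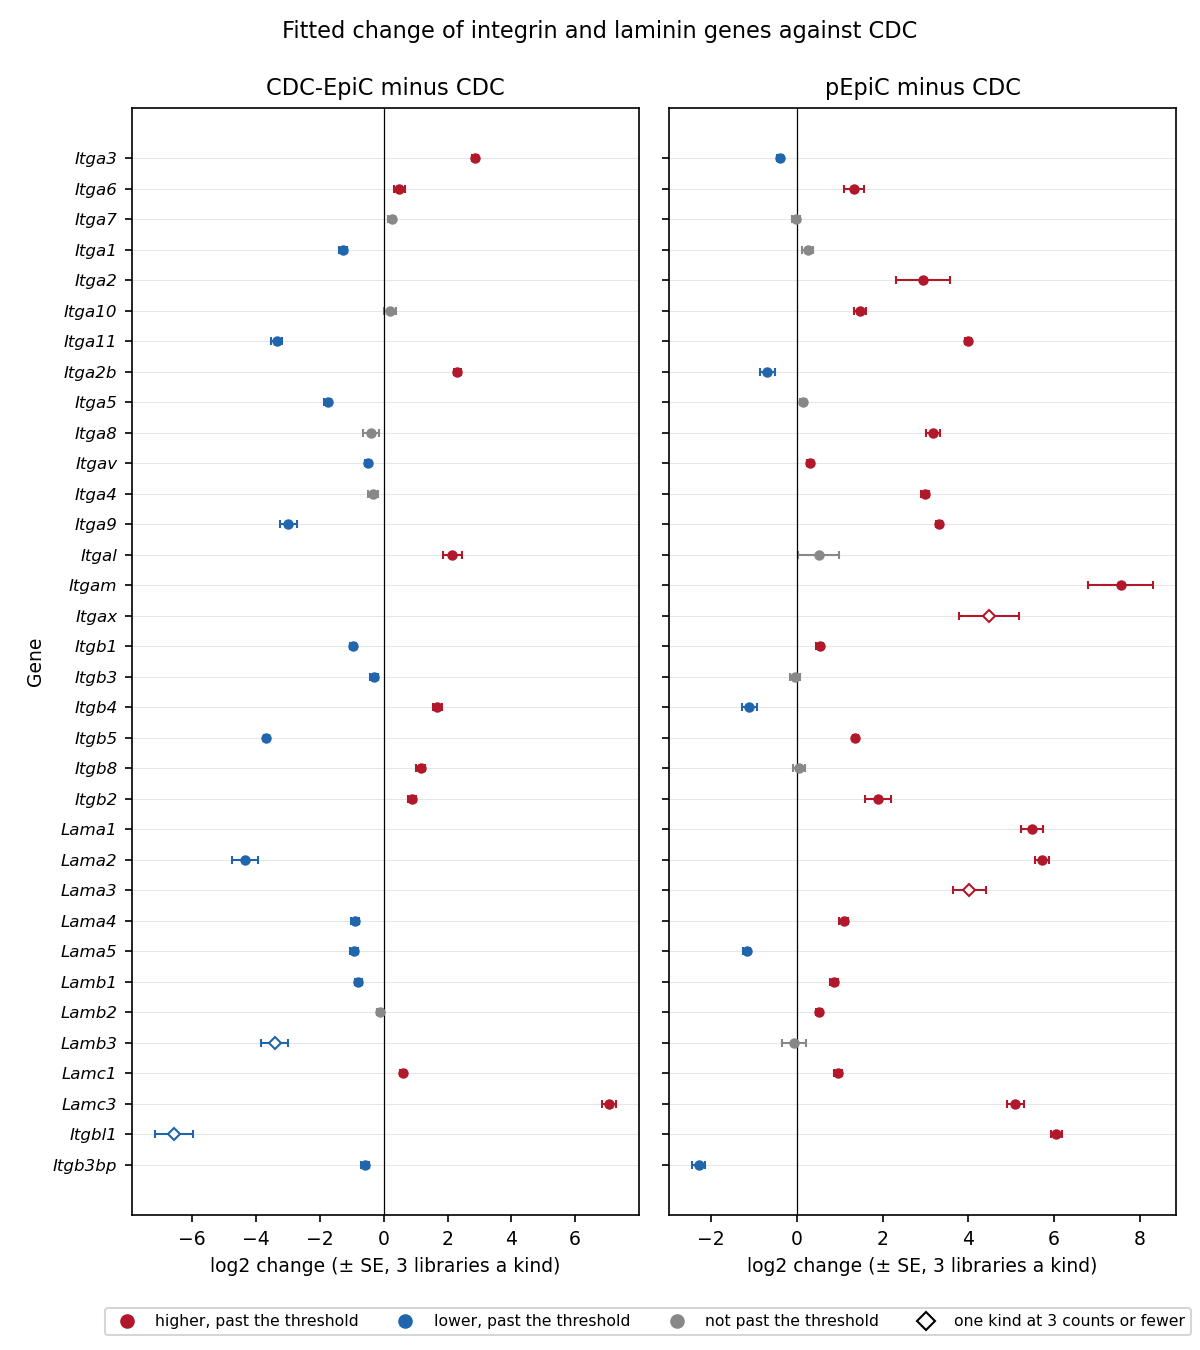
Fitted log2 change of tested genes in CDC-EpiC (left) and pEpiC (right) against CDC, with bars of 1 SE from 3 libraries of each kind. Itga3 lies at 2.86 on the left and -0.39 on the right, Itgb5 at -3.68 and 1.36, and Itga11 at -3.35 and 3.99.

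The order of the 3 kinds differed from gene to gene. Itga9, Itga11, Itgav, Itgb1, Itgb5, Itgbl1, Lama2, Lama4 and Lamb1 were lowest in CDC-EpiC, intermediate in CDC and highest in pEpiC, with each step past the threshold. Itga3, Itga2b and Itgb4 took the opposite order. Itga6, Itgb2 and Lamc1 were lowest in CDC and highest in pEpiC, Lamc3 was lowest in CDC and highest in the clone, and Lama5 was highest in CDC. These orders come from the fit without the length offset, and some steps depended on the scale. With the offset, Itgav was lower in pEpiC than in CDC (-0.26, adjusted p = 0.00102) and Lamc1 higher in the clone than in pEpiC (0.29, adjusted p = 0.00678). Itga6 did not pass between the clone and pEpiC (adjusted p = 0.213). On the TPM scale, Itga3 and Itga2b did not pass in pEpiC against CDC (adjusted p = 0.327 and 0.275). Itga7 passed in no comparison, although the scale mattered. With the length offset it was lower in pEpiC than in CDC, by -0.29 (adjusted p = 0.0162), whereas on the TPM scale it was at 0.40 (adjusted p = 0.0056), close to the median of all genes there.

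Promoters of 4 genes on which these orders turn are printed below from RefSeq (GRCm38.p6), 250 bases before to 50 bases after the start, 5′ to 3′ on the strand of the gene. Capitals mark the GC box GGGCGG, bound by Sp factors, on either strand. Itga3 lies on the minus strand at chr11:95076665-95076964, Itgb5 on the plus strand at chr16:33829415-33829714, Itga11 on the plus strand at chr9:62677605-62677904 and Lama5 on the minus strand at chr2:180225810-180226109. They held 3, 3, 0 and 4 GC boxes.
Itga3: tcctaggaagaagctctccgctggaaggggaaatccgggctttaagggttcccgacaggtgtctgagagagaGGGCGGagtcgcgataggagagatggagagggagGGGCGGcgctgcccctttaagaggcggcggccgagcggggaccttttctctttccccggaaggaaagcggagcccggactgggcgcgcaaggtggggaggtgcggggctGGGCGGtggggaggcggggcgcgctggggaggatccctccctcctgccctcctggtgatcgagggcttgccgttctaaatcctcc
Itgb5: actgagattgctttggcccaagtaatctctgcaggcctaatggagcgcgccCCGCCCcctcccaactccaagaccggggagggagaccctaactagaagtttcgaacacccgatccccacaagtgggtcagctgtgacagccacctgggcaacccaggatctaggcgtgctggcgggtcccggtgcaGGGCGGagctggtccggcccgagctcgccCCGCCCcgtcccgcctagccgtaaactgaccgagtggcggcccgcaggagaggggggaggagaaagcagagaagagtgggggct
Itga11: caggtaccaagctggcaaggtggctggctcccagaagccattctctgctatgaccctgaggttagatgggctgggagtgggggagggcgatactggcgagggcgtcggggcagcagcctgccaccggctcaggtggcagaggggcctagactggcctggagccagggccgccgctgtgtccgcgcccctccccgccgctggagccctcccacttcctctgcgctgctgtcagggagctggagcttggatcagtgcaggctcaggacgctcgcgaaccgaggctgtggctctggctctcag
Lama5: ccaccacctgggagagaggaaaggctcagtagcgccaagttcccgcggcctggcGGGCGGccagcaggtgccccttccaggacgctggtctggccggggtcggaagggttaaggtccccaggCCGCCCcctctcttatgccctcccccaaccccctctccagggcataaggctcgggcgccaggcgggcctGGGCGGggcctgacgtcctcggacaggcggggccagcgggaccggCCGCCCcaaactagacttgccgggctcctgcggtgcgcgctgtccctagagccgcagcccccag
The same table had an entry for 25 of the 39 genes, and 12 of the 25 held a GC box, compared with 35.7% of all 32851 promoters. The TEAD motif CATTCC was found in 2 of 25 (14.7% of all promoters), the AP-1 motif TGACTCA in 2 (5.2%), the CCAAT box in 4 (37.4%), the SMAD palindrome GTCTAGAC in 0 (0.213%) and the shorter SMAD sequence CAGAC in 17 (49.6%), each searched on both strands. The AP-1 motif lay in the windows of Itga9 and Itgax, and CATTCC in those of Itga10 and Itgb1. The RefSeq starts of Itga9, Itgb3bp, Lamb3 and Lama2 lay 105002, 100655, 94295 and 2816 bases from the GENCODE start of the gene, so these windows lie away from the GENCODE start. A match describes letters only, and its absence says nothing about the factor.

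Among the laminin-binding alpha subunits, Itga3 set the clone apart. Itga3, which pairs with Itgb1 as a receptor of epithelial cells for laminins that carry the alpha5 or alpha3 chain, is on chromosome 11 (95044474 to 95076801, minus strand, GRCm38). Its level was 39.1, 37.3 and 41.7 CPM in CDC, 248.6, 319.1 and 292.4 CPM in CDC-EpiC and 32.0, 30.5 and 30.2 CPM in pEpiC. All CDC-EpiC libraries lay above all others, and the pEpiC libraries lay just below those of CDC. The clone was 7.25-fold above CDC (log2 change 2.86, SE 0.10, adjusted p = 1.69e-12) and 9.26-fold above pEpiC (log2 change 3.21, SE 0.09, adjusted p = 7.93e-10). pEpiC was lower than CDC by log2 -0.39 (SE 0.06, adjusted p = 0.000216). This last difference was -0.75 with the length offset (adjusted p = 8.8e-07). On the TPM scale it turned to 0.10 (adjusted p = 0.327), where the median of all genes was 0.41.

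Itga6, a subunit of laminin receptors that joins Itgb1 or, in hemidesmosomes, Itgb4, was low throughout. It measured 4.20, 3.13 and 4.12 CPM in CDC, 5.97, 4.36 and 5.72 CPM in CDC-EpiC and 14.0, 8.15 and 7.66 CPM in pEpiC. The pEpiC libraries were the highest, led by library 1, which also held the most macrophage transcripts. pEpiC exceeded CDC by log2 1.33 (SE 0.24, adjusted p = 0.000434), and stayed above it without pEpiC library 1 (adjusted p = 0.000165). The clone differed from pEpiC by -0.89 (adjusted p = 0.00528), or by -0.34 with the length offset (adjusted p = 0.213). The difference between CDC-EpiC and CDC (log2 0.48, adjusted p = 0.0218) was not past the threshold when CDC-EpiC library 1, CDC-EpiC library 3 or CDC library 2 was left out, with adjusted p of 0.0973, 0.084 and 0.0951. Itga7, the laminin receptor of muscle, lay between 14.3 and 22.6 CPM in all 9 libraries, with overlapping groups. Its change was 0.25 in CDC-EpiC against CDC (adjusted p = 0.0641) and -0.02 in pEpiC against CDC (adjusted p = 0.859).

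Of the RGD-binding alpha subunits, Itga5 and Itgav carried most of the reads. Itga5, which with Itgb1 forms the main fibronectin receptor, was at 150, 125.8 and 135.6 CPM in CDC, 35.8, 48.2 and 38.6 CPM in CDC-EpiC and 152.8, 155.4 and 161.4 CPM in pEpiC. The clone was below both other kinds in every library. It was 3.37-fold below CDC (log2 -1.75, SE 0.11, adjusted p = 1.01e-09) and 3.84-fold below pEpiC (log2 -1.94, SE 0.09, adjusted p = 2.71e-08). Between pEpiC and CDC the log2 difference was 0.15 (SE 0.07, adjusted p = 0.0819), and its direction depended on the processing. It was -0.16 with the length offset (adjusted p = 0.0444), 0.64 on the TPM scale (adjusted p = 4.03e-05), where the median of all genes was 0.41, and 0.21 without CDC library 1 (adjusted p = 0.0200).

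Itgav pairs with several beta subunits to bind vitronectin, fibronectin and latent TGF-beta. It measured 218.3, 192.9 and 233.2 CPM in CDC, 146.6, 149.1 and 159.8 CPM in CDC-EpiC and 260.7, 281.5 and 279.8 CPM in pEpiC. The order was the same in every library, lowest in the clone and highest in pEpiC, yet the differences were small. The clone was 1.42-fold below CDC (log2 -0.51, SE 0.08, adjusted p = 6.78e-05). pEpiC was above CDC by log2 0.31 (SE 0.07, adjusted p = 0.00344), a difference that turned to -0.26 with the length offset (adjusted p = 0.00102), so its direction depends on the length term.

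The rarer RGD-binding subunits split. Itga2b, the platelet fibrinogen receptor subunit, was at 3.65, 3.68 and 2.99 CPM in CDC, 16.4, 17.6 and 17.5 CPM in CDC-EpiC and 2.26, 2.40 and 1.93 CPM in pEpiC. The clone lay far above CDC, and pEpiC just below it. The clone was 4.97-fold above CDC (log2 2.31, SE 0.12, adjusted p = 1.59e-10) and 7.79-fold above pEpiC (log2 2.96, SE 0.11, adjusted p = 6.08e-09). Itga8, a receptor for nephronectin, was at 19.3 to 21.4 CPM in pEpiC and at no more than 2.85 CPM in any other library. It was 9.04-fold higher in pEpiC than in CDC (log2 3.18, SE 0.16, adjusted p = 4.69e-08), and its difference between CDC-EpiC and CDC was -0.40 (SE 0.25, adjusted p = 0.169).

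Of the collagen-binding subunits, Itga2, Itga10 and Itga11 were higher in pEpiC than in CDC. Itga11 encodes the receptor of mesenchymal cells for fibrillar collagen and is on chromosome 9 (62677826 to 62783982, plus strand, GRCm38). It measured 13.7, 11.6 and 13.9 CPM in CDC, 0.99, 1.44 and 1.42 CPM in CDC-EpiC and 211.9, 212.7 and 216.8 CPM in pEpiC. The 3 kinds were fully separate, with the clone lowest. The clone was 10.2-fold below CDC (log2 -3.35, SE 0.17, adjusted p = 1.07e-10), pEpiC was 15.9-fold above CDC (log2 3.99, SE 0.08, adjusted p = 1.85e-10), and the clone was 167-fold below pEpiC (log2 -7.38, SE 0.09, adjusted p = 1.25e-11).

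Itga1, a receptor for type IV and other collagens, was at 20.1, 15.0 and 22.9 CPM in CDC, 7.56, 8.08 and 8.38 CPM in CDC-EpiC and 25.6, 23.2 and 22.6 CPM in pEpiC. Here too the clone was lowest, while CDC and pEpiC overlapped. The clone was 2.42-fold below CDC (log2 -1.28, SE 0.14, adjusted p = 7.05e-07). Between pEpiC and CDC the change of Itga1 was 0.26 (adjusted p = 0.0937), and -0.22 with the length offset (adjusted p = 0.0976). On the TPM scale it was 0.68 (adjusted p = 0.00158), where the median of all genes was 0.41. The change was 0.30 in the fit of all 9 libraries (adjusted p = 0.0378) and 0.39 without CDC library 3 (adjusted p = 0.0164). Itga10, the collagen receptor of cartilage, was at 5.74 to 6.20 CPM in pEpiC and at 1.98 to 2.57 CPM in the other kinds, a 2.77-fold difference between pEpiC and CDC (adjusted p = 6.69e-06). Itga2 had 15 to 35 counts in pEpiC libraries, no more than 4 in CDC and 0 in all CDC-EpiC libraries, which places pEpiC at least 7.48-fold above the clone at a floor of 3 counts per library.

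Both subunits of the alpha4 and alpha9 type, receptors for VCAM1, fibronectin and tenascin, were highest in pEpiC. Itga9 was at 6.09, 5.90 and 6.52 CPM in CDC, 0.39, 1.32 and 0.62 CPM in CDC-EpiC and 63.2, 59.8 and 67.1 CPM in pEpiC. The kinds did not overlap. pEpiC was 9.95-fold above CDC (log2 3.31, SE 0.08, adjusted p = 3.92e-10) and the clone 7.95-fold below CDC (log2 -2.99, SE 0.27, adjusted p = 1.02e-07), which became -3.60 without CDC-EpiC library 2. Itga4, the subunit that the epicardium of the embryo requires to cover the heart, was at 4.43, 3.73 and 4.30 CPM in CDC, 3.34, 3.27 and 3.41 CPM in CDC-EpiC and 34.4, 32.1 and 36.1 CPM in pEpiC. It was 7.97-fold higher in pEpiC than in CDC (log2 3.00, SE 0.09, adjusted p = 2.51e-09), and its difference of -0.32 between CDC-EpiC and CDC had an adjusted p of 0.0774.

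The beta subunits of non-leukocyte integrins were led by Itgb1 in every library, and the sharpest change was in Itgb5. Itgb5, which joins Itgav in a vitronectin receptor, is on chromosome 16 (33829665 to 33949338, plus strand, GRCm38). Its level was 249.3, 235.6 and 245.3 CPM in CDC, 18.7, 19.1 and 19.3 CPM in CDC-EpiC and 634.2, 655.2 and 642.4 CPM in pEpiC. Libraries of a kind were close and the kinds were far apart. The clone was 12.9-fold below CDC (log2 -3.68, SE 0.08, adjusted p = 1.89e-14) and 33.9-fold below pEpiC (log2 -5.08, SE 0.06, adjusted p = 1.01e-11), and pEpiC was 2.56-fold above CDC (log2 1.36, SE 0.06, adjusted p = 1.85e-08).

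Itgb1, the common partner of most alpha subunits, measured 782.0, 731.4 and 920.7 CPM in CDC, 419.9, 393.1 and 430.0 CPM in CDC-EpiC and 1184, 1240 and 1220 CPM in pEpiC. It took the same order as Itgb5 in every library, over a narrower range. The clone was 1.97-fold below CDC (log2 -0.98, SE 0.09, adjusted p = 2.51e-07). pEpiC was 1.45-fold above CDC (log2 0.54, SE 0.08, adjusted p = 0.000165), or 0.27 on the log2 scale with the length offset.

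Itgb4 and Itgb8 were higher in the clone. Itgb4, the hemidesmosome subunit that pairs with Itga6, was at 3.65, 3.68 and 3.40 CPM in CDC, 10.1, 11.3 and 13.1 CPM in CDC-EpiC and 1.48, 1.96 and 1.66 CPM in pEpiC. It was 3.20-fold higher in the clone than in CDC (log2 1.68, SE 0.14, adjusted p = 3.57e-08) and 2.17-fold higher in CDC than in pEpiC (adjusted p = 0.000198). Itgb8, which with Itgav binds latent TGF-beta, was at 8.44, 6.26 and 8.56 CPM in CDC, 16.6, 19.98 and 15.4 CPM in CDC-EpiC and 8.98, 7.32 and 8.63 CPM in pEpiC. The clone lay above both other kinds, which overlapped. It was 2.23-fold above CDC (log2 1.15, SE 0.13, adjusted p = 1.56e-06) and 2.08-fold above pEpiC (log2 1.06, SE 0.12, adjusted p = 1.89e-05). Itgb3, the other vitronectin receptor subunit, ran from 7.85 to 11.7 CPM across all libraries. Its change of -0.29 in the clone (adjusted p = 0.0426) was past 0.05 in neither DESeq2 (0.0675) nor the fit of all 9 libraries (0.0617), and was lost when CDC-EpiC library 1 or 2 or CDC library 1 or 3 was left out (0.0829 to 0.127).

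Of the leukocyte integrins, Itgam, Itgax and Itgb2 were highest in pEpiC libraries, which also held the most macrophage transcripts, and the part of macrophages in these levels was not tested. Itgam, which with Itgb2 forms the complement receptor of macrophages, had 1141, 363 and 398 counts in pEpiC libraries 1, 2 and 3, and at most 5.92 counts in any CDC or CDC-EpiC library. Itgb2 was at 5.08, 4.45 and 4.71 CPM in CDC, 9.29, 8.76 and 8.20 CPM in CDC-EpiC and 29.0, 11.9 and 13.8 CPM in pEpiC. In pEpiC library 1, Itgam was 2.98-fold and Itgb2 2.27-fold above the mean of libraries 2 and 3, while the 10 macrophage genes were 2.46- to 4.21-fold above it. For Itga6 this ratio was 1.77, and for no other tested gene of the list did it exceed 1.63. Without pEpiC library 1, pEpiC was above CDC by log2 1.39 for Itgb2 (adjusted p = 3.7e-06), compared with 1.90 when all libraries were used (SE 0.31, adjusted p = 0.000256).

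Itgb2 was also higher in the clone than in CDC (log2 0.88, SE 0.13, adjusted p = 1.76e-05), and so was Itgal, its partner in lymphocyte adhesion, at 33 to 50 counts against 7 to 11 (log2 2.16, SE 0.30, adjusted p = 1.37e-05). In these clone libraries the macrophage genes Adgre1, C1qa, C1qb, Mrc1 and Ptprc were at 0 or 1 count, and of the 4 macrophage genes tested in this comparison, Cd68 was higher in the clone (281 to 328 counts against 36 to 51) while Lyz2, Csf1r and Cd14 were lower, with a median log2 change of -0.97 over the 4. Itgax, a dendritic cell subunit, had 14 to 22 counts in pEpiC and at most 2 elsewhere. Itgad and Itgax lie beside Itgam on chromosome 7 and are close in sequence, so reads can be split among them.

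The laminin alpha chains differed most in pEpiC. Lama5, the broadly expressed chain of epithelial and mesothelial basement membranes, is on chromosome 2 (180176373 to 180225859, minus strand, GRCm38). It measured 361.2, 294.8 and 349.8 CPM in CDC, 135.7, 214.7 and 180.5 CPM in CDC-EpiC and 151.7, 161.9 and 145.7 CPM in pEpiC. CDC was highest in every library, and the clone overlapped with pEpiC. The clone was 1.90-fold below CDC (log2 -0.93, SE 0.13, adjusted p = 1.48e-05) and pEpiC was 2.26-fold below CDC (log2 -1.17, SE 0.08, adjusted p = 5.43e-07). Between CDC-EpiC and pEpiC the difference was 0.20 (SE 0.13, adjusted p = 0.175), which became 0.37 without CDC-EpiC library 1 (adjusted p = 0.00285) and 1.12 with the length offset (adjusted p = 3.00e-05). The ratio of counts to FPKM implied a length of 11576 bases, which made Lama5 the longest transcript of the list.

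Lama2, the alpha chain of muscle basement membranes, went the other way from Lama5 in pEpiC, while both were lower in the clone than in CDC. It was at 5.12, 2.81 and 5.07 CPM in CDC, 0.04, 0.14 and 0.44 CPM in CDC-EpiC and 211.4, 234.9 and 256.6 CPM in pEpiC. The kinds were fully separate, and the clone values stand for 1, 3 and 10 counts. pEpiC was 52.4-fold above CDC (log2 5.71, SE 0.16, adjusted p = 1.47e-09), and the clone was 20.4-fold below CDC (log2 -4.35, SE 0.42, adjusted p = 2.28e-07), a log2 change that became -5.53 without CDC-EpiC library 3.

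Lama4, found in vessel and mesenchymal basement membranes, had 108.0, 84.3 and 116.9 CPM in CDC, 49.5, 60.6 and 56.6 CPM in CDC-EpiC and 222.3, 216.8 and 243.0 CPM in pEpiC. The order was again clone, CDC, pEpiC in every library. The clone was 1.86-fold below CDC (adjusted p = 3.46e-06) and pEpiC 2.14-fold above CDC (adjusted p = 5.34e-06). With the length offset the log2 change of Lama4 between pEpiC and CDC went from 1.10 to 0.61 (adjusted p = 8.44e-05). Lama1, the chain of early embryonic basement membranes, was at 24.3, 28.2 and 34.5 CPM in pEpiC, at 0.69, 0.91 and 0.27 CPM in CDC and at no more than 2 counts in any clone library. It was 44.7-fold higher in pEpiC than in CDC (log2 5.48, SE 0.25, adjusted p = 2.87e-08) and at least 216-fold higher than in the clone. Lama3, the chain of skin and lung epithelium, had 32 to 40 counts in pEpiC and at most 3 in CDC, so pEpiC was at least 11.8-fold higher, and the clone had 3 to 9 counts.

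The main beta chains moved less. Lamb1, the widespread beta chain, was at 250.4, 204.1 and 270.3 CPM in CDC, 122.5, 149.1 and 149.0 CPM in CDC-EpiC and 440.2, 453.2 and 476.3 CPM in pEpiC. The kinds did not overlap. The clone was 1.73-fold below CDC (log2 -0.79, SE 0.11, adjusted p = 8.15e-06) and pEpiC 1.83-fold above it (log2 0.87, SE 0.09, adjusted p = 1.14e-05). With the length offset the change between pEpiC and CDC was 0.42 (adjusted p = 0.000386). Lamb2, the beta chain of muscle and kidney basement membranes, was at 265.9, 219.2 and 258.0 CPM in CDC and 196.3, 256.3 and 235.4 CPM in CDC-EpiC, which overlapped (log2 -0.12, SE 0.10, adjusted p = 0.318). In pEpiC it was at 356.2, 384.3 and 357.2 CPM, which was 1.43-fold above CDC (adjusted p = 0.000142), but with the length offset the log2 difference fell to 0.07 (adjusted p = 0.361). Lamb3, a partner of Lama3 in the laminin that anchors epidermis, had 21 to 23 counts in CDC and 1 to 3 in the clone, at least 7.49-fold lower.

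Of the gamma chains, Lamc3 was near its detection limit in CDC and clearly present in the other kinds. Lamc3, a chain of a few laminins in brain, retina and other sites, is on chromosome 2 (31887291 to 31946539, plus strand, GRCm38). It was at 28.2, 41.4 and 35.8 CPM in CDC-EpiC, at 9.71, 9.46 and 8.80 CPM in pEpiC and at 4 to 7 counts per library in CDC. The clone lay above pEpiC in every library, and both lay far above CDC. The fitted change was 132-fold in the clone (log2 7.05, SE 0.22, adjusted p = 6.57e-13) and 34.3-fold in pEpiC (log2 5.10, SE 0.20, adjusted p = 1.01e-08), and the clone exceeded pEpiC 3.75-fold (adjusted p = 3.85e-07).

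Lamc1, the gamma chain of nearly all laminins, was at 396.7, 335.3 and 417.6 CPM in CDC, 513.8, 635.2 and 599.5 CPM in CDC-EpiC and 703.3, 774.9 and 833.6 CPM in pEpiC. Unlike Lama4, Lama5 and Lamb1, it was higher in the clone than in CDC, by 1.51-fold (log2 0.60, SE 0.10, adjusted p = 8.30e-05). pEpiC was 1.95-fold above CDC (log2 0.96, SE 0.09, adjusted p = 4.82e-06). The difference between CDC-EpiC and pEpiC was -0.41 (adjusted p = 0.00149) and turned to 0.29 with the length offset (adjusted p = 0.00678).

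Both genes that encode no subunit also differed. Itgbl1 was at 1.75, 1.45 and 2.57 CPM in CDC, at no more than 1 count per library in CDC-EpiC and at 133.7, 137.8 and 125.1 CPM in pEpiC. It was 66.2-fold higher in pEpiC than in CDC (log2 6.05, SE 0.13, adjusted p = 2.49e-10), and the clone was at least 14.3-fold below CDC and at least 987-fold below pEpiC. Itgb3bp was at 14.1, 18.3 and 13.2 CPM in CDC, 10.4, 10.1 and 10.2 CPM in CDC-EpiC and 3.34, 3.14 and 3.11 CPM in pEpiC, 4.90-fold lower in pEpiC than in CDC (adjusted p = 2.96e-07). Its exons overlap those of Pgm1 on the other strand.

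The length offset moved several other differences between pEpiC and CDC. Itgb3 went from -0.04 (adjusted p = 0.791) to -0.50 (adjusted p = 0.00274), and so passed only with the offset. Among the genes higher in pEpiC, Lamc1 went from 0.96 to 0.36 (adjusted p = 5.58e-04). Itga4 was at 2.27, Itga9 at 2.75, Lama1 at 4.77, Lama2 at 5.0 and Lama3 at 3.51 with the offset, all still past the threshold. In CDC-EpiC against pEpiC, Itga7 went from 0.23 (adjusted p = 0.120) to 0.58 (adjusted p = 0.00200), Itgav from -0.85 to -0.20 (adjusted p = 0.00342) and Lamb2 from -0.68 to -0.15 (adjusted p = 0.124). Itgb3 passed with neither fit there, at -0.30 and 0.24. It did pass on the TPM scale at -0.52 (adjusted p = 0.0019), where the median of all genes was -0.33. RLE normalization (adjusted p = 0.0463) and the fit of all 9 libraries (adjusted p = 0.046) also brought it just past the threshold.

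**Figure D3:**
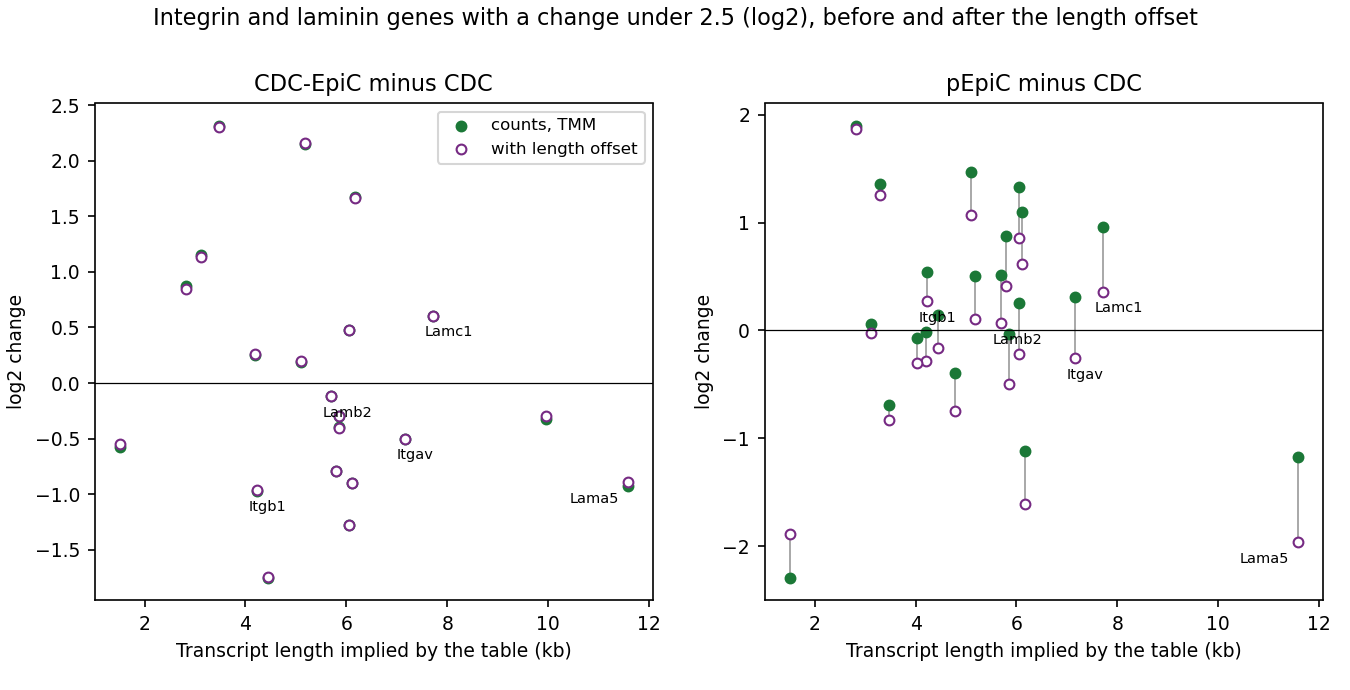
Fitted log2 change against transcript length for genes with a change under 2.5, before (filled) and after (open) the length offset, for CDC-EpiC (left) and pEpiC (right) against CDC. The symbols coincide on the left, while on the right Lama5 moves from -1.17 to -1.96 and Itgav crosses 0.

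To set chains against each other, levels per transcript length (TPM) were summed within each family, and each chain was given as a share of its family in each library. Shares and sums are given without a test. Sums of pEpiC and CDC are to be read beside the median log2 change of all genes on this scale, 0.41 in pEpiC against CDC. Lama5 held 60.6% to 64.3% of laminin alpha TPM in CDC and 59.1% to 65.1% in CDC-EpiC, which overlapped, but 15.3% to 18.3% in pEpiC. In pEpiC, Lama4 held 46.4% to 49.3% and Lama2 29.2% to 31.7%. By counts not divided by length this order turned, to means of 35.2% for Lama4 and 36.3% for Lama2, with Lama2 ahead in pEpiC libraries 2 and 3. The summed level of the alpha chains in the clone was 45.4 ± 7.69 TPM (SD, n = 3) compared with 82.0 ± 12.4 TPM in CDC and 187.7 ± 11.3 TPM in pEpiC.

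Among the beta chains, Lamb2 held 49.1% to 52.0% in CDC, 61.6% to 63.7% in CDC-EpiC and 43.3% to 46.3% in pEpiC. Lamc1 held 90.5% to 91.0% of gamma TPM in the clone and 95.8% to 96.7% in the other kinds, and Lamc3 held 6.42% to 7.58% in the clone and no more than 1.71% elsewhere. The sum of gamma chains was 1.08 to 1.14 times that of alpha chains in CDC and 1.29 to 1.36 times in pEpiC, but 3.19 to 3.68 times in CDC-EpiC. On this scale the clone held more gamma chain and less alpha chain RNA than CDC in every library.

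**Figure D4:**
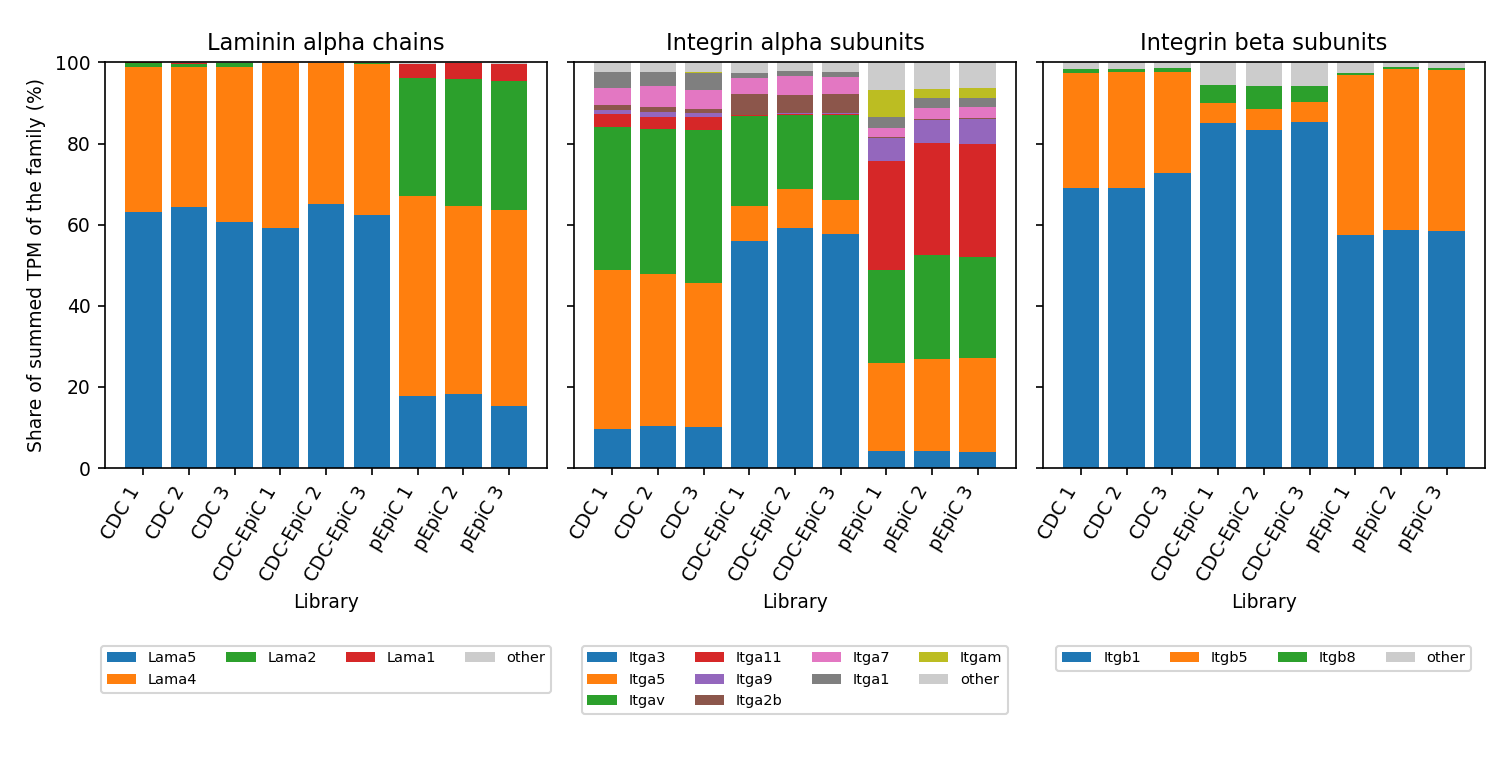
Share of each chain in the summed TPM of laminin alpha chains, integrin alpha subunits and integrin beta subunits, 1 bar per library. Itga3 fills 56.0% to 59.2% of the integrin alpha bars in CDC-EpiC, and Lama2 with Lama1 appears in the laminin alpha bars of pEpiC.

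For the integrin alpha subunits, Itga3 held 56.0% to 59.2% of TPM in CDC-EpiC, 9.55% to 10.3% in CDC and 4.03% to 4.19% in pEpiC. CDC was led by Itga5 with 35.3% to 39.2% and Itgav with 35.4% to 37.8%, with Itgav ahead in CDC library 3. By counts Itgav was ahead in CDC, with a mean of 46.4% beside 29.7% for Itga5. In pEpiC, Itga11 held 26.8% to 27.8%, Itgav 22.9% to 25.5% and Itga5 21.7% to 23.2%, whereas by counts Itgav led with a mean of 31.1%, ahead of Itga11 with 24.3%. Grouped by ligand, the laminin-binding subunits summed to 122 ± 14.8 TPM in the clone, 22.5 ± 1.93 TPM in CDC and 28.9 ± 0.652 TPM in pEpiC (SD, n = 3). The collagen-binding subunits summed to 3.82 ± 0.216, 11.1 ± 1.86 and 117 ± 1.71 TPM in the same order, and the RGD-binding subunits to 66.1 ± 3.74, 109.8 ± 11.2 and 187.7 ± 8.25 TPM. The higher RGD-binding sum of pEpiC beside CDC depended on the scale. With the length offset, Itga5, Itgav and Itga2b were lower in pEpiC than in CDC (log2 -0.16, -0.26 and -0.83), and Itga8 was higher (2.71). The laminin-binding sum was highest and the collagen- and RGD-binding sums were lowest in the clone. Most of the laminin-binding sum of the clone was Itga3, at a mean of 111.4 TPM.

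Itgb1 held 83.3% to 85.2% of integrin beta TPM in CDC-EpiC, 69.1% to 72.8% in CDC and 57.4% to 58.6% in pEpiC, with most of the remainder in Itgb5 outside the clone. Summed beta subunits were 3.11 to 3.47 times the summed alpha subunits in CDC, 3.08 to 3.25 times in pEpiC and 0.982 to 1.26 times in CDC-EpiC. The clone had about as much RNA for alpha as for beta subunits, whereas the other kinds had an excess of beta.

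Genes that work with integrins and laminins were counted from fixed lists, each with its 3 most abundant members by TPM. As given above, 68.8% of all genes passed in CDC-EpiC compared with CDC (34.2% higher, 34.6% lower) and 78.3% in pEpiC compared with CDC (39.8% higher, 38.5% lower), and the counts of each list are to be read against these shares. In the basement membrane list, 16 of 21 tested genes passed in CDC-EpiC compared with CDC, 7 higher and 9 lower, and 18 of 22 in pEpiC compared with CDC, 14 higher and 4 lower, or 9 and 9 with the length offset. Sparc, a collagen-binding matricellular protein, had log2 changes of 0.20 (adjusted p = 0.0985) and 1.15 (adjusted p = 2.51e-07). Fbln2, a fibulin that binds laminin and nidogen, fell by 3.28 in the clone on the log2 scale (SE 0.10, adjusted p = 6.16e-13) and rose by 0.27 in pEpiC (adjusted p = 0.0103), which was -0.02 with the offset (adjusted p = 0.737). Col4a1, of type IV collagen, had changes of -0.17 (adjusted p = 0.156) and 0.92 (adjusted p = 2.76e-06).

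Of the integrin ligands, 20 of 25 tested genes passed in the clone, 3 higher and 17 lower, with a median log2 change of -1.22, and 20 of 25 in pEpiC, 12 higher and 8 lower, or 17 and 4 on the TPM scale, where 60.9% of all genes were higher and 20.9% lower. Col1a1 was lower in the clone by log2 -1.63 (SE 0.12, adjusted p = 7.49e-09) and higher in pEpiC by 1.01 (SE 0.09, adjusted p = 4.28e-06). Fn1 and Col1a2 had changes of -0.26 and -0.23 in the clone that did not pass (adjusted p = 0.0941 and 0.0915), and were higher in pEpiC by 0.95 (adjusted p = 3.71e-05) and 1.31 (adjusted p = 8.80e-07). With the length offset the pEpiC changes were 0.33 for Fn1 (adjusted p = 0.0065), 0.53 for Col1a1 and 0.39 for Col4a1.

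In the list of adhesion complex proteins inside the cell, 27 of 34 tested genes passed in the clone, 12 higher and 15 lower, and 32 of 35 in pEpiC, 11 higher and 21 lower. In pEpiC their median log2 change was -0.29 beside 0.02 for all genes. On the TPM scale the pEpiC split was 18 higher and 8 lower, with a median of 0.22 beside 0.41 for all genes, so the list lay below all genes on both scales. Zyx, a stress fiber and focal adhesion protein, rose by 1.11 in the clone (SE 0.10, adjusted p = 7.46e-08) and fell by 0.75 in pEpiC (adjusted p = 1.11e-05). Flna and Actn1, which crosslink actin, were lower in the clone by -0.33 (adjusted p = 0.00652) and -0.53 (adjusted p = 0.000201) and in pEpiC by -0.52 (adjusted p = 0.00015) and -0.89 (adjusted p = 1.40e-06). Among other laminin receptors and tetraspanins, 16 of 20 tested genes passed in the clone, 3 higher and 13 lower, and 19 of 20 in pEpiC, 8 higher and 11 lower, or 5 and 11 with the length offset. Cd63 and Cd81, tetraspanins that bind integrins, were lower in the clone by -0.24 (adjusted p = 0.0174) and -0.35 (adjusted p = 0.000892), and lower in pEpiC by -0.51 (adjusted p = 3.13e-05) and -0.67 (adjusted p = 3.08e-06), where Cd63 turned to 0.32 with the length offset. Bsg, a membrane glycoprotein, differed by 0.09 in the clone (adjusted p = 0.374) and by -1.36 in pEpiC (SE 0.06, adjusted p = 2.21e-08).

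Between CDC-EpiC and pEpiC, the clone was lower for most of the basement membrane genes and integrin ligands that passed, while 40.3% of all genes were higher and 41.5% lower. In the basement membrane list 7 were higher and 14 lower of 22 tested (8 and 11 with the length offset), and among the ligands 3 were higher and 21 lower of 25, with a median log2 change of -1.97. The adhesion complex list split evenly, 14 higher and 14 lower of 35, with a median of 0.11 beside -0.02 for all genes. On the TPM scale, where 27.2% of all genes were higher and 55.7% lower, it was 7 and 19, with a median of -0.26 beside -0.33, and with the length offset it was 17 and 10. Of 19 tested laminin receptors and tetraspanins, 7 were higher and 9 lower, or 4 and 13 on the TPM scale.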

How the data were processed

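Expected counts, FPKM and TPM of 18245 genes were deposited for 3 libraries of each kind, from paired reads of 100 bases (BGISEQ-500). According to the submitters' processing notes the authors used HISAT2 2.0.4, Bowtie2 2.2.5, RSEM 1.2.12 and DESeq2 1.4.5 with the build mm10. Whether strand was used is not given in the sources used here. Exons of 13 of the 39 genes overlap another gene, so their counts are uncertain, among them Itgav, Itgb4, Lama2, Lamc3 and Itga7. Itga1, Itga10, Itgad and Itgam overlap a gene on the same strand, which knowledge of the strand would not settle. The expected counts that the authors deposited were estimated reads per gene, 30.3% of them not whole (tolerance 0.001). FPKM as deposited divide a count by transcript length and by library total, and TPM as deposited add up to a fixed sum in each library. Gene positions are from GENCODE M21 on GRCm38. The series lists 1 sample per kind, the methods give fewer biological replicates per condition than the 3 libraries used here, and figure legends give 3. Whether libraries with the same label were made from different mice or dishes is not stated, so p-values measure only the spread between these libraries, which may be technical. Libraries of a kind differed by more than sampling noise (chi-square over degrees of freedom 4.89 to 23.0).

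Counts were rounded and each pair of kinds was fitted alone (6 libraries) in edgeR 4.0.16 under R 4.3.3 with filterByExpr (minimum count 10, minimum total 15), TMM, glmQLFit, glmQLFTest and Benjamini-Hochberg adjustment over all genes tested, at 0.05. The SE of a log2 change is its absolute value divided by the square root of F. Groups with at most 3 counts in every library were taken as the floor, and bounds cover counting error only. The length offset was a loess (span 0.4) of log2 CPM ratios on transcript length, over genes of at least 5 CPM. The other alternatives were DESeq2 1.42.0, RLE normalization, no filter, limma 3.58.1 on log2(TPM + 1), all 9 libraries, a replicate block and leaving out each library. Using CDC library 3 alone was added after the data had been seen. The steps were tested on simulated counts. Tables were made with pandas 2.3.3 and NumPy 2.4.6 in Python 3.11.15, and figures with matplotlib 3.10.9. The genes and lists were chosen with earlier results of these data known. 1 gene of the selection enters the counts and sums and is not reported here. All others are accounted for, and of each partner list the 3 with the highest mean TPM are named, while the macrophage and marker genes come from the marker lists and single ones were picked after their values were seen.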

Additional observations from a re-analysis of the deposited data

How the results depend on the processing

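The number of integrin and laminin genes past the threshold stayed within 23 to 25 of 30 for CDC-EpiC against CDC, 27 to 31 of 35 for pEpiC against CDC and 31 to 33 of 35 for CDC-EpiC against pEpiC under all alternatives, and within 23 to 23, 27 to 28 and 31 to 33 when single libraries were left out. Library numbers carried no pairing between kinds (correlations of deviations -0.107 to 0.0818), and with the replicate block the counts were 25, 28 and 33, with Itga7 added in the first and last, Itga1 in the second and Itgb3 in the last. With CDC library 3 alone, the library without Myh6 counts, they were 23 (8 higher, 15 lower) and 27 (23 higher, 4 lower). Partner genes past the threshold numbered 79, 89 and 89 in the main fit, against 81, 89 and 91 in DESeq2 and 81, 84 and 84 with the length offset. All genes passed at 68.8%, 78.3% and 81.9% in the main fit and at 70.7%, 74.7% and 80.4% with the length offset. These shares also stand beside the counts of integrin and laminin genes above. Shares of all genes were not worked out for the other alternatives apart from the TPM scale. Of 1324 recomputed gene changes, 1258 kept direction and side of the threshold, 19 lost the threshold, 25 reached it and 22 changed sign, all of them changes in comparisons with pEpiC. For pEpiC against CDC, the length offset turned Itgav to -0.26, Itga5 to -0.16, Itgb8 to -0.023 and Itga1 to -0.22. The TPM scale turned Itga7 to 0.40, Itga3 to 0.096, Lamb3 to 0.14 and Itgb3 to 0.36. Itgb8 was -0.093 with CDC library 3 alone, and the fit of all 9 libraries gave 0.026 for Itga7 and 0.0086 for Itgb3. Leaving out single libraries gave -0.079 to 0.14 for Itgb8, -0.067 to 0.060 for Itga7, -0.13 to 0.065 for Itgb3 and -0.22 to 0.13 for Lamb3, none of which passed the threshold in these fits. On the TPM scale Itgb8 (0.47, adjusted p = 0.00705), Itga7 (adjusted p = 0.0056) and Itgb3 (adjusted p = 0.0122) did pass in pEpiC against CDC, where the median of all genes was 0.41. For CDC-EpiC against pEpiC, the TPM scale turned Itga7 to -0.13 and Lama5 to -0.19, and the offset turned Lamc1 to 0.29 and Itgb3 to 0.24. Itga2b in pEpiC against CDC lost the threshold on the TPM scale (adjusted p = 0.275) and with CDC library 3 alone (0.114). Shares from counts not divided by length were 75.7% for Lama5 in CDC, 75.6% in CDC-EpiC, 35.2% for Lama4 and 36.3% for Lama2 in pEpiC, and 97.4%, 93.0% and 97.5% for Lamc1 in CDC, CDC-EpiC and pEpiC. The cause of the length dependence was not tested. Levels of a few counts limit Itga2, Itgax, Lama3, Lamb3 and Itgal.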
